A study of Mus musculus and Homo sapiens with 15 samples.

Results

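The endothelial genes Pecam1, Cdh5, Cldn5, Kdr, Flt1, Tek, Eng, Vwf, Plvap and Emcn, which mark blood vessels, were followed across thymus tumours and grafted tumours of mice. They were chosen by symbol alone, as a fixed list of 10 among the 52340 genes of the thymus table and the 56691 genes of the graft table, and all 10 were found in both. The thymus libraries came from W/W mice, which carry p53 R282W on both alleles, had T-lymphomas in all 3 groups and were sampled at day 150. They formed 3 groups of 3: mice given water, mice given arsenic trioxide (ATO) whose tumours were progressing, and mice given ATO whose tumours were regressing. The graft libraries came from tumours of what the labels call a CDX model in C57 mice, with the genotype given as WT, after PBS (n = 2) or ATO (n = 2). The labels give no grafted cell, age, dose or sampling time for the grafts, and no dose for W/W mice. The study set out to compare lymphoma transcriptomes with and without ATO. Outcome divided the W/W mice given ATO, so that treatment and outcome cannot be told apart when either of those groups is set against water.

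Endothelial cells line every vessel and are held together by adherens and tight junctions. Vascular endothelial growth factors act through receptor tyrosine kinases on these cells, angiopoietins act through the Tie receptors, and ligands of the BMP and TGF-beta family act with the co-receptor endoglin. In the thymus, vessels carry progenitor cells in and mature T cells out, and growing tumours draw on new vessels. Several of the genes are not exclusive to endothelium: Pecam1 is also found on platelets, macrophages and some T cells, Eng on macrophages and stromal cells, and Vwf in megakaryocytes. The RNA came from whole tissue, in which fewer endothelial cells and less RNA per cell cannot be told apart.

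Promoter windows are shown for the genes that passed the test in the grafts, as described further on. Of the 10 genes, 6 (Kdr, Flt1, Tek, Eng, Emcn and Cldn5) had a window in the RefSeq table of GRCm38.p6, running from 250 bases before the annotated start to 50 after it. In the GRCm38 coordinates of the thymus table, Kdr (ENSMUSG00000062960) spans chr5:75932827-75978458, Flt1 (ENSMUSG00000029648) chr5:147561604-147726011 and Cldn5 (ENSMUSG00000041378) chr16:18776847-18778262, so that each window overlaps the 5′ end of its gene. The windows are printed 5′ to 3′ on the strand of the gene, and capitals mark the letters AGGAAG or CGGAAG on either strand, which contain GGAA, the core recognised by ETS factors. The Kdr window lies at chr5:75978406-75978705 (minus strand), the Flt1 window at chr5:147725962-147726261 (minus strand) and the Cldn5 window at chr16:18776597-18776896 (plus strand).
Kdr: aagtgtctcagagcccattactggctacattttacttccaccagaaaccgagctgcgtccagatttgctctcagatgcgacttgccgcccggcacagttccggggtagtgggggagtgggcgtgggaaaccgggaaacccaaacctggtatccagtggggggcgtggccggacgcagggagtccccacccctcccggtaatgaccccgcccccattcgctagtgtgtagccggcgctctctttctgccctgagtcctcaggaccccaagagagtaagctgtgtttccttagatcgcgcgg
Flt1: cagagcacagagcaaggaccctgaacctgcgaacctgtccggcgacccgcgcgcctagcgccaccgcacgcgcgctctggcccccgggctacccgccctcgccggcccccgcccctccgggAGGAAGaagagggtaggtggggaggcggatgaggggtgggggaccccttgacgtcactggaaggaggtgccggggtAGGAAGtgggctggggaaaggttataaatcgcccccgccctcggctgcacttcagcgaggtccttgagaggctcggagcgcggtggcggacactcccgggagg
Cldn5: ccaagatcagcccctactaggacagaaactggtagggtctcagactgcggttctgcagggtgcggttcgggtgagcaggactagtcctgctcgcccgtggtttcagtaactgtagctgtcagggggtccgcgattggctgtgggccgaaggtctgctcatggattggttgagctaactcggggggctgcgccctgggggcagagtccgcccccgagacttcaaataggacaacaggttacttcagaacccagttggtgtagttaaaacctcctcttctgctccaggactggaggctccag

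The Flt1 window held AGGAAG at 2 places, starting at positions -129 and -53 from the start, and TATAAA at position -31. Neither AGGAAG nor CGGAAG was found in the Kdr or Cldn5 window. The core GGAA alone was not marked, and it does occur in the printed Kdr window. The letters CCGCCC, a GC box, stood 3 times in the Flt1 window, 2 times in the Kdr window and once in the Cldn5 window. Such letters are common: of 32851 windows of 300 bases, 35.4% held AGGAAG, 16.9% CGGAAG, 13.6% TATAAA and 35.7% CCGCCC on either strand. Of the other motifs searched, AACAAT (in 10.7% of windows), AGATAA (11.2%) and TAAACA (13.4%) were not found in these 3 windows. No motif of the 7 can cover another completely, although neighbouring matches could overlap by a few letters.

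Total counts ranged from 12800367 to 17550594 in the W/W libraries and from 12922147 to 15637644 in the grafts. Every endothelial gene had more than 3 counts in all 13 libraries, the lowest being 11 counts of Cldn5 in water 3. All 16 genes of a list of other pan-endothelial genes (such as Tie1, Robo4 and Cd93) were also above 3 counts in every library. Of 10 thymocyte markers, 8 or 9 exceeded 3 counts in each water library and all 10 did in each ATO-treated thymus and each graft. CPM is a gene's count relative to the size of its library, here scaled by TMM, which sets that size from genes that most libraries share. Library regressing 3 stood apart: 8 adipocyte markers, including Ucp1 and Lep, summed to 2747 CPM there, against 78.5 and 349 in the other regressing libraries, 7.71 to 363 in the progressing libraries and 20.0 to 26.5 in the water libraries. Transcripts of the mitochondrial genome took 8.48% of counts in regressing 3 and 8.83% in progressing 2, against 2.08% to 4.86% in the other 7 W/W libraries. Unless another tool is named, adjusted p-values come from the quasi-likelihood test of edgeR, adjusted by Benjamini and Hochberg's method over all genes tested in a table, and a gene was called at an adjusted p under 0.05. Nothing in the labels says what a replicate number marks. The p-values set each group difference against the spread between libraries within groups, as the test estimates it.

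Relative to gene length, Pecam1 was the most abundant of the genes in every group, and Plvap the next. In the authors' FPKM values, which divide a count by gene length and library size, Pecam1 stood at 13.5 ± 5.82 (SD, n = 3) in water, 17.4 ± 3.44 in progressing, 22.7 ± 2.45 in regressing tumours, 16.2 ± 0.290 (n = 2) in PBS grafts and 26.3 ± 5.09 in ATO grafts. Plvap FPKM ranged from 7.08 ± 3.52 in regressing tumours to 16.2 ± 7.19 in ATO grafts. Below them stood Eng and Cdh5, and in PBS grafts and progressing tumours also Cldn5. Vwf was lowest per length in 4 of the 5 groups, at 0.30 ± 0.0990 to 0.665 ± 0.163 FPKM, and Flt1 was lowest in water at 0.717 ± 0.448 FPKM. Most neighbours in this order overlapped within 1 SD. The exceptions were Pecam1 above Plvap in regressing tumours, Cdh5 above Vwf in water, Emcn above Flt1 and Tek above Kdr in PBS grafts, and Tek above Vwf in ATO grafts.

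In the W/W thymus, no endothelial gene passed the test in any of the 3 comparisons, although fitted values lay above water for 7 of the 10 genes in both ATO groups. With progressing tumours against water, 0 of 10 were called (11.9% of all 18119 genes tested were), with regressing tumours against water 0 of 10 (7.70%), and with regressing against progressing 0 of 10 (12.6%). Before adjustment, 0, 1 and 0 genes had p under 0.05 in regressing against water, progressing against water and regressing against progressing. DESeq2 called 0, 1 and 0, and limma-voom none in any of the 3. The median fitted log2 fold change of the 10 genes was 0.63 for progressing against water, beside -0.04 over all genes, and 0.59 for regressing against water, beside -0.11. Both comparisons use the same water libraries. The 16 other pan-endothelial genes had medians of 0.26 for progressing and -0.19 for regressing tumours against water. For regressing against progressing tumours the median of the 10 genes was -0.09, beside -0.07 over all genes. Library regressing 3 decided the sign in regressing tumours against water: without it the median was -0.51, and that against progressing tumours was -1.03. The median of regressing tumours against water was also 0.22 with the replicate block and 0.34 with limma-voom. Without water 3 it was 0.35, and that of progressing tumours against water 0.41. Without regressing 1 or 2 it was 1.00 or 0.91. The small median of regressing against progressing tumours turned to 0.19 or 0.18 without regressing 1 or 2, to 0.076 without progressing 2 to 0.095 with library size alone and to 0.0075 without a filter on low counts, and was -0.46 without progressing 1.

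Of the comparisons with water, the lowest adjusted p-values were those of Cldn5 and then Cdh5 in progressing tumours against water and of Tek in regressing tumours against water. Pecam1, an adhesion molecule at cell contacts, stood at 121, 85.4 and 59.0 CPM in water 1, 2 and 3, at 81.9, 164 and 105 CPM in progressing 1, 2 and 3, and at 111, 125 and 152 CPM in regressing 1, 2 and 3. The groups overlapped, and the log2 fold change was 0.40 (SE 0.35) for progressing and 0.55 (SE 0.35) for regressing tumours against water. Cdh5 encodes VE-cadherin, the adherens junction protein of endothelium, and had 15.5, 17.3 and 6.48 CPM in water, 17.8, 42.8 and 37.1 CPM in progressing, and 7.42, 10.7 and 40.0 CPM in regressing tumours. All 3 progressing libraries lay above all 3 water libraries, with progressing 1 within 1 CPM of water 2, and regressing tumours split into 2 low libraries and 1 high one. Cdh5 differed by 1.32 (SE 0.66) on the log2 scale between progressing tumours and water, with an edgeR adjusted p of 0.220.

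Cldn5, the claudin of endothelial tight junctions, was the endothelial gene of the 10 with the largest fitted difference in the thymus. It had 0.774, 2.60 and 0.679 CPM in water, 4.62, 16.0 and 3.46 CPM in progressing, and 2.17, 1.20 and 4.62 CPM in regressing tumours, resting on 11 to 189 counts a library. The progressing libraries were all above the water libraries and progressing 2 was the highest, whereas the regressing libraries overlapped both other groups. The log2 fold change was 2.57 (SE 0.87) for progressing tumours against water, with an edgeR adjusted p of 0.0797. DESeq2 put that adjusted p at 0.00984, edgeR without water 2 gave 3.44 with 0.0427, and edgeR without a filter on low counts gave 0.0351. Regressing tumours had a log2 fold change of 0.98 (SE 0.84) against water and of -1.59 (SE 0.84, edgeR adjusted p 0.215) against progressing tumours. Cdh5 and Cldn5 were the 2 of 10 genes with progressing libraries all above water (11.9% of all genes were), and none lay all below (14.7%). No endothelial gene separated regressing tumours from water (40.1% of all genes did, in either direction) or from progressing tumours (42.0%).

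The receptors also overlapped between groups. Kdr encodes VEGFR2, the main signalling receptor for VEGF-A, and stood at 14.8, 3.82 and 5.37 CPM in water, 3.76, 7.61 and 16.5 CPM in progressing, and 4.21, 5.51 and 29.6 CPM in regressing tumours. Each group thus held 1 library above its other 2, and the groups overlapped, with log2 fold changes of 0.21 (SE 0.85) and 0.71 (SE 0.86) for progressing and regressing tumours against water. Flt1 encodes VEGFR1, which binds VEGF-A tightly and signals weakly, and had 8.64, 5.57 and 14.8 CPM in water, 8.63, 22.9 and 42.3 CPM in progressing, and 10.4, 9.88 and 45.2 CPM in regressing tumours. Its highest values were in progressing 3 and regressing 3, and the lowest library of either ATO group lay inside the range of water. The Flt1 log2 fold change was 1.34 (SE 0.74, edgeR adjusted p 0.258) for progressing and 1.17 (SE 0.73, edgeR adjusted p 0.319) for regressing tumours against water.

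Tek encodes TIE2, the angiopoietin receptor. It had 3.10, 3.44 and 4.51 CPM in water, 4.50, 6.68 and 8.82 CPM in progressing, and 3.22, 5.22 and 15.8 CPM in regressing tumours. Progressing 1 and water 3 were nearly equal, so the groups met, and regressing 3 was again the highest. The log2 fold change was 0.86 (SE 0.65) for progressing and 1.13 (SE 0.65, edgeR adjusted p 0.282) for regressing tumours against water. Eng encodes endoglin, a co-receptor for BMP9 and TGF-beta, and had 24.2, 21.8 and 61.0 CPM in water, 8.20, 26.1 and 25.6 CPM in progressing, and 10.9, 11.3 and 37.5 CPM in regressing tumours. Unlike the other receptors, its highest library was water 3, and its fitted value was below water in both ATO groups, by a log2 fold change of -0.84 (SE 0.64) in each. Over omissions of 1 library the Eng value ran from -1.07 to -0.22 in progressing and from -1.57 to -0.21 in regressing tumours. In water 3 the CPM of Eng was 9.41 times that of Cdh5, against 0.460 to 1.56 times in the other 8 W/W libraries. Eng shares bases with Fpgs on the opposite strand, and use of strand in the counting is not given in the sources used here, so reads of Eng and Fpgs cannot be told apart there.

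The remaining genes serve blood clotting, permeability and the cell surface. Vwf, the clotting factor stored in endothelial granules, had 6.58, 24.1 and 19.3 CPM in water, 7.03, 15.4 and 4.34 CPM in progressing, and 6.19, 3.95 and 16.4 CPM in regressing tumours. Plvap forms the diaphragms of fenestrated endothelium and had 23.1, 37.3 and 18.7 CPM in water, 6.54, 35.1 and 25.7 CPM in progressing, and 7.92, 9.95 and 21.2 CPM in regressing tumours. Emcn encodes endomucin, a surface sialomucin of capillaries and veins, and had 4.38, 7.25 and 3.27 CPM in water, 5.61, 11.1 and 11.1 CPM in progressing, and 2.47, 3.67 and 16.6 CPM in regressing tumours. The groups overlapped for all 3 genes. Vwf had fitted log2 fold changes of -0.90 (SE 0.71) and -0.91 (SE 0.71) for progressing and regressing tumours against water, and Emcn of 0.90 (SE 0.74) and 0.61 (SE 0.73). Plvap was lower than water by a fitted -1.02 (SE 0.61, edgeR adjusted p 0.302) in regressing tumours and differed by -0.23 (SE 0.61) in progressing tumours. Plvap overlaps Gtpbp3 on the opposite strand, with the same limit as for Eng. Of 10 platelet and megakaryocyte markers, 2 to 4 were at 0 in each water library, while their summed level ran from 9.47 to 349 CPM, nearly all of it Itgb3 in water 1 and water 3. Water 2 had the highest Vwf and the lowest platelet sum of the water libraries. However, 5 of the 10 platelet markers exceeded 3 counts in water 2, against 4 in water 1 and 6 in water 3. Any part of platelets in the Vwf values was not tested.

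**Figure D1:**
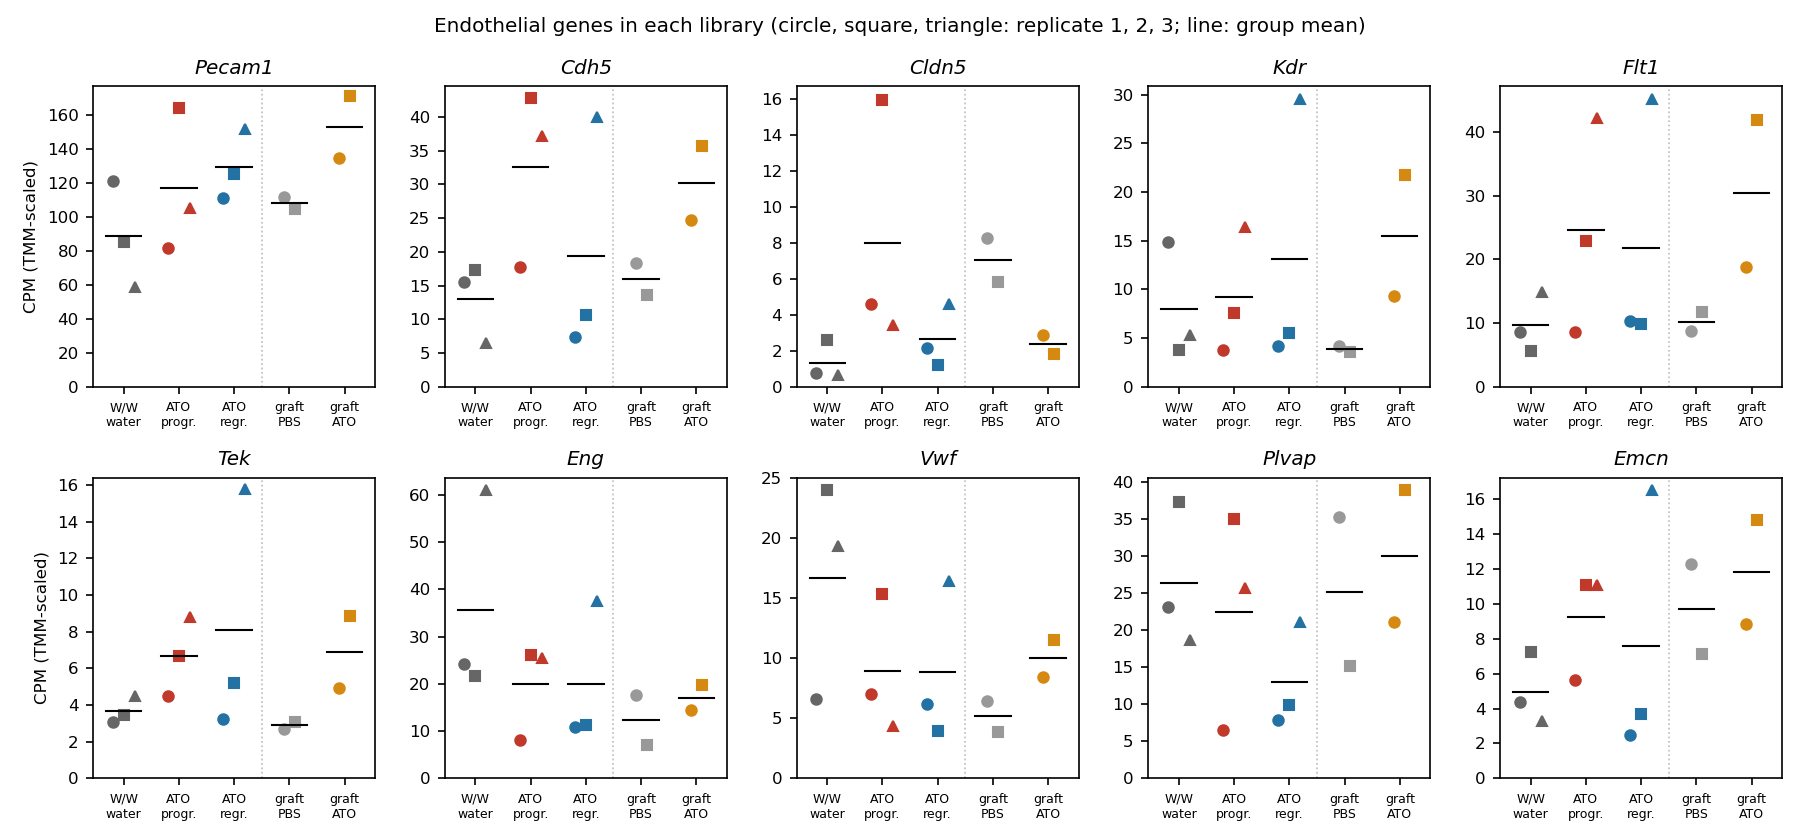
CPM of each endothelial gene (vertical axes, linear, scaled by TMM, each gene on its own scale) in the 9 W/W libraries and, right of the dotted line, the 4 graft libraries. Each symbol is 1 library and each line a group mean; regressing 3 (blue triangle) is the highest regressing library in all 10 panels, and Cldn5 is the gene that is lower in both ATO grafts than in both PBS grafts.

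A large part of this spread ran by library. Regressing 3 was the highest of its group for 10 of 10 genes, and progressing 1 the lowest of its group for 8 of 10. The highest library exceeded the lowest by a median of 2.66 times over the 10 genes in water, 3.37 times in progressing and 4.37 times in regressing tumours, with a maximum of 7.04 times for Kdr in regressing tumours. Without Pecam1, whose level would dominate, the other 9 genes summed to 101, 123 and 134 CPM in water, 66.7, 184 and 175 CPM in progressing, and 54.9, 61.3 and 227 CPM in regressing tumours. Regressing 1 and 2 thus lay below every water library on that sum and regressing 3 above all of them. When regressing 3 was left out, the fitted log2 fold change against water turned for Cdh5 (-0.43), Kdr (-0.64) and Emcn (-0.59), that of Flt1 was 0.17 and that of Tek 0.30, and 0 of 10 genes were called. Regressing 3 was also the library with the adipocyte markers and high mitochondrial share given above, and progressing 2, where 3 of the 10 genes peaked over all 9 libraries, had the highest adipocyte sum outside the regressing group. Their part in these levels was not tested.

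Across the 9 W/W libraries, which span the 3 groups and include regressing 3, 40 of the 45 pairs of endothelial genes had a positive Pearson r between their log2(CPM + 1) values, with a median of 0.48. Cdh5 with Emcn (r of 0.95), Flt1 with Tek (0.90) and Tek with Emcn (0.82) were the 3 pairs over 0.8. Pecam1 and Vwf ran apart, at -0.20. By the mean of the 10 genes on the same scale, Emcn (r of 0.93) and Cdh5 (0.87) followed the group most closely and Vwf (0.40) and Pecam1 (0.52) least, each being part of that mean. Outside the list, the most alike of 16352 genes were Scp2 (0.98), Plcb1 (0.95), Podxl, Ankrd9 (both 0.94) and Tie1 (0.94). Tie1 is the partner receptor of TIE2 and Podxl encodes a sialomucin of the endothelial surface. Tie1 stood at 5.93, 5.73 and 4.63 CPM in water, 6.29, 14.4 and 16.0 CPM in progressing, and 4.64, 5.58 and 23.5 CPM in regressing tumours, with the same high libraries. By rank correlation Scp2 was 2nd and Tie1 151st of these genes, so the order depends on the measure.

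In the grafts, 3 of the 10 endothelial genes changed with ATO (13.9% of all 15468 genes tested did): the VEGF receptors Kdr and Flt1 rose (2 of 10, beside 7.37% of all genes) and the tight junction gene Cldn5 fell (1 of 10, beside 6.57%). Of the 10 fitted values, 9 were above PBS, with a median log2 fold change of 0.71 beside 0.04 over all genes. That median was 0.46 without ATO 2 and 1.14 without PBS 1. Values did not overlap for 7 genes, 6 higher with ATO (31.7% of all genes were) and 1 lower (30.0%), and 61.7% of all genes did not overlap in one direction or the other. With 2 libraries against 2, such separation is common.

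Kdr stood at 4.22 and 3.63 CPM in PBS 1 and 2 and at 9.29 and 21.8 CPM in ATO 1 and 2 (58 and 54 against 126 and 331 counts). Both ATO libraries were above both PBS libraries, and ATO 2 was 2.34 times ATO 1. The Kdr log2 fold change was 1.98 (SE 0.45, edgeR adjusted p 0.0184), or 3.96-fold. Flt1 rose from 8.74 and 11.7 CPM to 18.9 and 42.0 CPM, by 1.57 on the log2 scale (SE 0.38, adjusted p 0.0233 in edgeR). The ATO libraries again lay above both PBS libraries and differed from each other by 2.22 times. Cldn5 fell from 8.30 and 5.84 CPM (114 and 87 counts) to 2.88 and 1.84 CPM (39 and 28 counts), which is -1.58 on the log2 scale (SE 0.46, adjusted p 0.0418 in edgeR). It was the only one of the 10 whose lowest library was ATO 2. These calls rest on few libraries. Kdr lost its call without PBS 2 (log2 fold change 1.86, edgeR adjusted p 0.0510) and without ATO 2 (1.22, 0.0687). Flt1 lost its call without PBS 1 (1.36, edgeR adjusted p 0.0888) and without ATO 2 (0.86, 0.123), and Cldn5 without PBS 1 (-1.32, 0.244), PBS 2 (-1.84, 0.0529) or ATO 2 (-1.31, 0.0830). With library size alone as the scaling, the Cldn5 call was also lost (-1.39, edgeR adjusted p 0.0609). The number of genes called was 1 without PBS 1, 1 without PBS 2, 5 without ATO 1 and 0 without ATO 2.

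Cdh5, Tek, Pecam1 and Vwf lay above PBS in both ATO libraries without passing the test. Cdh5 had 18.3 and 13.6 CPM after PBS and 24.7 and 35.6 CPM after ATO, which is 0.92 on the log2 scale (SE 0.30, adjusted p 0.0602 in edgeR), which DESeq2 put at an adjusted p of 0.0352. With edgeR, Cdh5 was called with library size alone (adjusted p 0.0332) and without a filter on low counts (0.0443). Tek had 2.69 and 3.09 CPM after PBS and 4.94 and 8.88 CPM after ATO, which is 1.26 on the log2 scale (SE 0.46, adjusted p 0.0838 in edgeR). Pecam1 had 112 and 105 CPM after PBS and 135 and 172 CPM after ATO, with 0.50 (SE 0.21, edgeR adjusted p 0.116), and was called with library size alone (0.70, edgeR adjusted p 0.0453). In each of these genes ATO 2 was the highest library and ATO 1 lay between it and the PBS libraries. Vwf had 6.48 and 3.89 CPM after PBS and 8.48 and 11.5 CPM after ATO, which is 0.95 on the log2 scale (SE 0.41, adjusted p 0.137 in edgeR).

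Eng, Emcn and Plvap overlapped between the graft groups. Eng had 17.5 and 6.98 CPM after PBS and 14.5 and 19.7 CPM after ATO, Emcn 12.3 and 7.12 against 8.85 and 14.8 CPM, and Plvap 35.2 and 15.1 against 21.1 and 39.0 CPM. In all 3, PBS 1 exceeded PBS 2 and ATO 2 exceeded ATO 1, and the fitted log2 fold changes were 0.48 (SE 0.42), 0.29 (SE 0.40) and 0.26 (SE 0.39). Library ATO 2 was the highest of the 4 for 9 of the 10 genes. The Cldn5 difference was opposite in fitted direction to that of progressing tumours against water (-1.58 in grafts, 2.57 in the thymus), with no overlap in either, but the tables were made separately and the contrast between them was not tested.

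**Figure D2:**
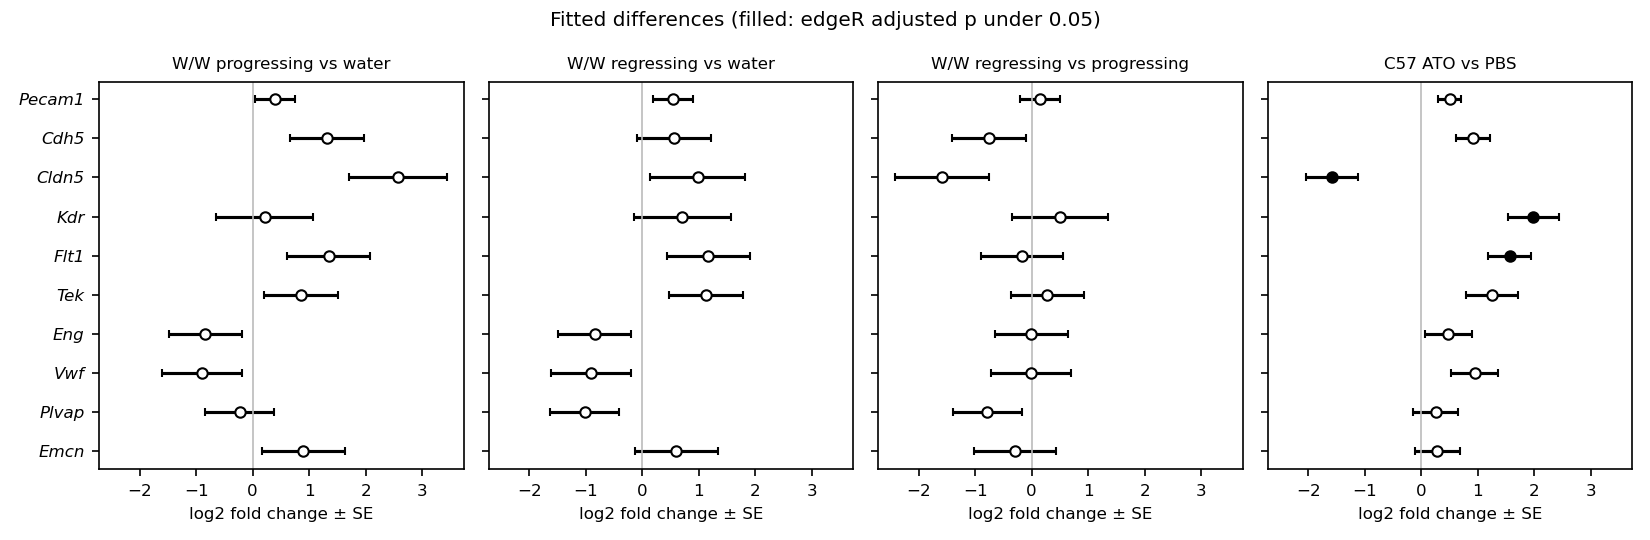
Fitted log2 fold change (horizontal axes) of each endothelial gene in the 4 comparisons, with bars of 1 SE and filled circles where the edgeR adjusted p was under 0.05. Filled circles appear only for Kdr, Flt1 and Cldn5 in the grafts; in the thymus, Cldn5 in progressing tumours lies farthest from 0 at 2.57.

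Gene size moved with the graft differences. Over all genes tested, the median log2 fold change rose from -0.27 in the shortest of 10 bins of exonic size to 0.53 in the longest bin (9332 bases and more), and the share called higher rose from 4.40% to 22.4% while the share called lower went from 13.1% to 1.29%. Flt1 (13504 bases) and Kdr (9030 bases) are long genes, and Cldn5 (1416 bases) is the shortest of the 10. Less the median of their own bin, Kdr stood at 1.72, Flt1 at 1.04 and Cldn5 at -1.29, while Tek (4712 bases) stood at 1.26 and Cdh5 (4203 bases) at 0.92. Vwf, the longest of the 10 at 16064 bases, stood at 0.42 and Pecam1 at 0.33. With offsets for size and GC content in the fit, an alternative chosen after seeing the data, the log2 fold change was 1.62 for Kdr (edgeR adjusted p 0.0567), 1.02 for Flt1 (0.104) and -1.30 for Cldn5 (0.0800), and 0 of 10 genes were called. The mitochondrial share of counts differed between the same groups, at 0.521% and 1.02% after PBS and 5.98% and 4.03% after ATO. Their part in the differences was not tested beyond these values. The thymus comparisons with water also moved with size. In regressing tumours against water the bin medians ran from -0.28 for the shortest genes, with the lowest at -0.45 in the next bin, to 0.27 for the longest. In progressing tumours against water they were 0.03 for the shortest, as low as -0.22 in the third bin and 0.24 for the longest, and Cldn5 there stood 2.71 above its bin.

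**Figure D3:**
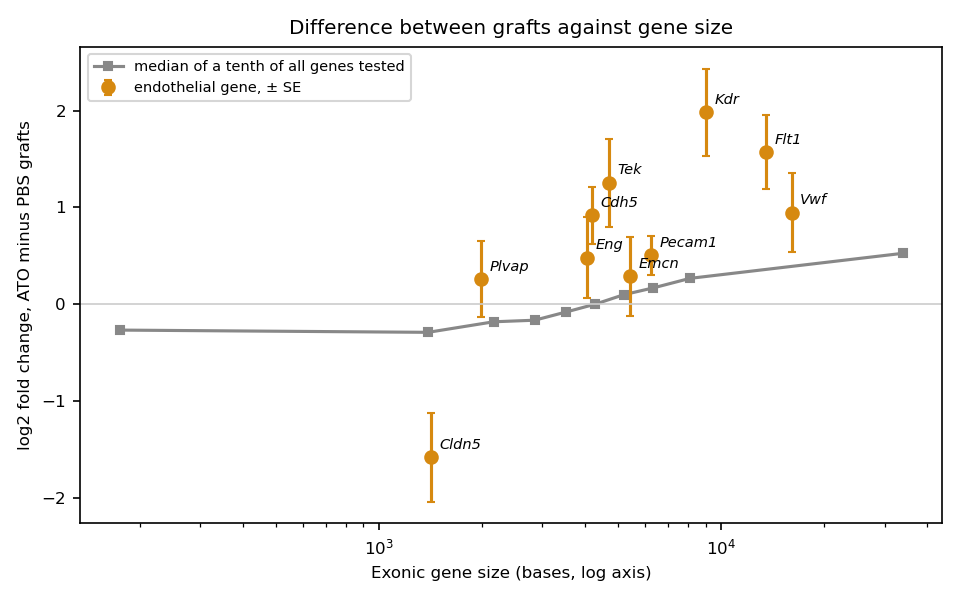
Log2 fold change between ATO and PBS grafts (vertical axis) against exonic gene size in bases (horizontal axis, log scale) for the 10 endothelial genes, with bars of 1 SE. Grey squares are medians of 10 bins of all genes tested, drawn at the geometric middle of each bin's size range; they run from -0.27 for the shortest genes to 0.53 for the longest, and Kdr and Flt1 lie above the grey line and Cldn5 below it.

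Other vascular genes in the grafts moved in both directions. Over all genes tested 7.37% were called higher and 6.57% lower, and most of the list counts below lie near those shares, from which nothing is read about the lists. Of 16 other pan-endothelial genes, 2 rose and 1 fell, with a median of 0.44: Ptprb, the endothelial phosphatase that acts on TIE2, rose from 5.90 and 6.44 to 14.8 and 19.0 CPM (log2 fold change 1.45, SE 0.35, edgeR adjusted p 0.0225), Cd93 rose by 1.15 (SE 0.29, 0.0260), and the secreted factor Egfl7 fell from 55.2 and 65.0 to 30.1 and 34.8 CPM (-0.89, SE 0.22, 0.0256). Of 14 endothelial transcription factors 2 rose, Mef2c by 2.44 (SE 0.46, edgeR adjusted p 0.0107) and Epas1, the hypoxia factor HIF-2 alpha, by 1.03 (SE 0.28, 0.0339). Vegfa, the ligand of Kdr and Flt1, was the 1 of 11 tested growth factors and partners to rise, from 27.8 and 45.6 to 77.2 and 76.0 CPM (1.06, SE 0.25, edgeR adjusted p 0.0225). Both ATO libraries lay above both PBS libraries for Vegfa, and they were nearly equal, unlike those of Kdr and Flt1. Jag1 rose among 11 tip cell and Notch genes (1.28, SE 0.37, edgeR adjusted p 0.0410), Rgcc fell among 10 tested capillary, arterial and venous genes (-1.09, SE 0.20, 0.00980), and Vcam1 fell among 3 tested leukocyte adhesion genes (-1.12, SE 0.29, 0.0280). No lymphatic marker of 4 tested changed. Leaving out single libraries ended the calls of Ptprb (PBS 1 or PBS 2, log2 fold change 1.24 to 1.61 over the 4 omissions), Cd93 (PBS 2 or ATO 2, 0.79 to 1.49), Egfl7 (PBS 1, PBS 2 or ATO 1, -1.02 to -0.79), Epas1 (PBS 1, PBS 2 or ATO 2, 0.97 to 1.06), Jag1 (PBS 1, PBS 2 or ATO 2, 1.00 to 1.48), Vcam1 (PBS 1 or PBS 2, -1.28 to -1.01) and Vegfa (PBS 1, 0.73 to 1.44), and none of those of Mef2c and Rgcc. Offsets for size and GC content ended those of Ptprb, Cd93, Mef2c, Epas1 and Jag1.

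In progressing tumours against water, other vascular genes were called in both directions. Over all genes tested 11.9% were called, and several of the list counts below lie near that share. Of 16 other pan-endothelial genes 3 fell and 0 rose, although their median was 0.26: Calcrl (132, 20.5 and 33.8 CPM in water, 14.4, 3.89 and 9.34 in progressing; log2 fold change -2.75, SE 0.70, edgeR adjusted p 0.0310), S1pr1 (-2.32, SE 0.64, 0.0410) and Icam2 (-1.25, SE 0.29, 0.0225). T cells and macrophages also express S1pr1 and Icam2. Of 14 transcription factors 5 fell, led by Lyl1 (-4.50), Mef2c (-4.02) and Klf2 (-3.32). Mef2c and Klf2 are also lymphocyte genes, and the cell source of Lyl1 was not tested. Lyl1 stood at 33.3 ± 36.9 CPM in water and 1.45 ± 1.10 CPM in progressing tumours (SD, n = 3), and these groups overlapped. Of 12 growth factors and partners, Angpt1, the activating ligand of TIE2, rose from 0.967, 1.68 and 2.59 CPM to 56.7, 11.2 and 9.85 CPM (3.88, SE 0.76, edgeR adjusted p 0.0116), while Nrp2 (-2.70) and Tgfb1 (-1.55) fell. Notch1, also a T cell gene, rose by 3.73 among 11 tip cell and Notch genes, and Icam1 (-2.24) and Fut7 (-3.41) fell among 6 adhesion genes. Ccl21a (-7.51) fell among 5 lymphatic markers, but 3 of the 5 had fitted values above water and their median was 0.77. Of 8 thymic epithelium markers 5 also fell in this comparison, and the cell source of Ccl21a was not tested. Of 12 capillary, arterial and venous genes 0 were called. Calls of Angpt1, Notch1 and Ccl21a held in each omission of 1 library, but limma-voom did not call Ccl21a (adjusted p 0.154). Those of the others did not: Calcrl lost its call without water 1, progressing 2 or progressing 3 (-3.23 to -1.56 over the 6 omissions), S1pr1 without any of 5 libraries all but water 3 (-2.66 to -1.79), Icam2 without water 3 or progressing 3 (-1.34 to -1.12), Lyl1 without water 2, progressing 2 or progressing 3 (-5.34 to -3.14), Mef2c without progressing 1, 2 or 3 (-4.58 to -3.16), Klf2 (-4.36 to -2.65) and Icam1 (-2.89 to -1.85) without progressing 3, Nrp2 without water 1 or any progressing library (-3.14 to -1.55), Tgfb1 without water 2, progressing 1 or progressing 3 (-1.80 to -1.05) and Fut7 without water 1, water 3, progressing 1 or progressing 3 (-4.29 to -2.92).

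Regressing tumours, set against the same water libraries, showed 0 of 16 other pan-endothelial genes, 0 of 14 transcription factors, 0 of 11 tip cell and Notch genes, 0 of 12 capillary, arterial and venous genes and 0 of 6 adhesion genes called. Of all genes tested, 7.70% were called in that comparison, and nothing is read about the lists from these counts. The 16 other pan-endothelial genes had a median of -0.19, with 7 fitted above water and 9 below. Angpt1 was the 1 of 12 growth factors and partners called, at 14.0, 21.3 and 16.4 CPM (log2 fold change 3.29, SE 0.74, edgeR adjusted p 0.0284), and Ccl21a the 1 of 5 lymphatic markers (-6.33, SE 1.38, 0.0253). Those 5 lymphatic markers had a median of -0.02, with 2 fitted above water and 3 below. The cell source of Ccl21a was not tested here either, and 3 of 8 thymic epithelium markers rose. The Angpt1 call held without water 3 and was lost without any of the other 5 libraries (3.01 to 3.70), and the Ccl21a call was lost without water 2 or any regressing library (-6.90 to -5.75). Against progressing tumours, regressing tumours were lower in the tip cell gene Esm1 (1.19 ± 0.248 against 7.04 ± 2.42 CPM, SD, n = 3). Its log2 fold change was -2.55 (edgeR adjusted p 0.0331), and Notch1 was also lower (-2.05, 0.0374). No gene of the other vascular lists was called there (12.6% of all genes tested were). Esm1 lost its call without any single library of the 6 (-2.82 to -2.32), and Notch1 without 5 of them, all but progressing 2 (-2.43 to -1.60).

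Markers of other cell types moved with the groups, and their counts stand beside the shares of all genes called that are given above. Of pericyte and smooth muscle markers, which encase vessels, Abcc9 rose among 11 tested in the grafts (1.56), Notch3 rose among 12 in progressing tumours against water (2.24), Mcam fell among 12 in regressing against progressing tumours (-2.18) and 0 of 12 changed in regressing tumours against water. Single libraries decided these calls: Abcc9 lost its call without PBS 1 or PBS 2 (1.47 to 1.63 over the 4 omissions), Notch3 without any water library or progressing 1 (1.25 to 2.70 over 6) and Mcam without any library but progressing 1 (-2.63 to -1.48 over 6). Notch3 stood at 110 ± 95.7 CPM in progressing tumours and at 23.3 ± 7.05 CPM in water (SD, n = 3). In that comparison the 12 pericyte and smooth muscle markers had a median of 0.32, with 7 fitted above water and 5 below. Notch1 (3.73) and 4 of 10 thymocyte markers also rose in it, and the cell source of Notch3 was not tested. In the grafts, 4 of 7 tested fibroblast markers rose, led by Pdgfra (2.18) and Col1a1 (2.15), and the 8 listed summed to 478 and 222 CPM after PBS and 613 and 1640 CPM after ATO, so that ATO 2 was highest there too. Macrophage markers went the other way: 4 of 10 fell, led by C1qa (-2.19) and C1qb (-1.88), with sums of 917 and 691 CPM after PBS and 408 and 352 CPM after ATO. Of 9 skeletal muscle markers 2 rose (Myh1 by 2.79, Mylpf by 1.07), with sums of 266 and 35.5 CPM after PBS and 374 and 396 CPM after ATO. Platelet (0 of 4 tested) and red cell markers (0 of 5) did not pass the test, 1 of 4 adipocyte markers fell (Cfd), 1 of 3 thymic epithelium markers rose (Ccl25), and of 10 thymocyte markers Cd4 rose while Ptcra and Cd3d fell. No fibroblast, macrophage or muscle marker was at 0 in any graft library. Pdgfra, Mylpf and Cd4 lost their calls without PBS 2 (1.74 to 2.5, 0.69 to 1.54 and 0.67 to 1.52 over the 4 omissions), Ptcra without PBS 1 (-2.33 to -0.82) and Ccl25 without any library but ATO 2 (0.75 to 1.36). Col3a1, also among the 4 fibroblast markers, lost its call without PBS 2 or ATO 2 (0.42 to 2.19), and the values of Col1a1 (1.19 to 3.04), Myh1 (1.88 to 5.35) and Cfd (-5.42 to -2.22) kept their calls but moved with single libraries. DESeq2 did not call Col1a1, Col3a1, Myh1 or Ptcra, and limma-voom did not call Col3a1. Offsets for size and GC content ended the calls of Abcc9, Col3a1, Myh1, Cfd, Ccl25 and Ptcra. Their part in the endothelial values was not tested.

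The thymus groups differed in these markers as well. With regressing tumours against water, 4 of 8 adipocyte markers rose, 3 of 8 fibroblast markers fell and 1 (Pi16) rose, 3 of 8 thymic epithelium markers and 7 of 10 thymocyte markers rose, and 0 of 10 macrophage, 0 of 4 platelet, 0 of 8 muscle and 0 of 6 red cell markers were called. With progressing tumours against water, 5 of 8 thymic epithelium markers, 1 of 10 macrophage markers (Csf1r) and 1 of 4 platelet markers (Itgb3) fell, 4 of 10 thymocyte markers rose, and no fibroblast, adipocyte, muscle or red cell marker was called. Up to 3 called genes of each list were followed over omissions of 1 library. In regressing tumours against water, the adipocyte genes Ucp1 and Plin1, at a mean of 0.146 and 0.193 CPM in water, lost their calls in every omission and Lep without water 2 or regressing 2. Col1a1 lost its call there in 4 of 6 omissions (-3.62 to -2.26), all but water 2 and regressing 3, and Col3a1 without water 3, regressing 1 or regressing 2 (-3.53 to -2.05). Ptcra lost its call there without regressing 1 or 2. In progressing tumours against water Aire lost its call without any library but water 2 (-5.54 to -3.18). Single libraries also decided the calls of Pi16 (lost without any library but water 1, 3.19 to 4.28), Csf1r (lost without water 2, progressing 1 or progressing 3, -2.40 to -1.58) and Itgb3 (lost without any library but water 2, -4.88 to -3.67). Between regressing and progressing tumours, 2 of 8 adipocyte and 6 of 8 thymic epithelium markers were higher in regressing tumours, 3 of 8 fibroblast markers were lower, and no macrophage, platelet, muscle, thymocyte or red cell marker was called. Lep lost that call without any library but regressing 1, Lipe without progressing 1, progressing 3, regressing 2 or regressing 3 (2.00 to 4.71) and Foxn1 without progressing 2, progressing 3, regressing 1 or regressing 2 (5.25 to 5.69). Of the fibroblast genes, Col1a1 (-4.92 to -3.54) and Col1a2 (-4.18 to -2.96) lost it without regressing 1, and Col3a1 (-4.43 to -3.20) without regressing 1 or 2. Summed fibroblast markers ran from 325 to 942 CPM in water, 786 to 1360 CPM in progressing and 145 to 485 CPM in regressing tumours, and summed macrophage markers from 1771 to 2565, 320 to 1477 and 561 to 999 CPM.

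**Figure D4:**
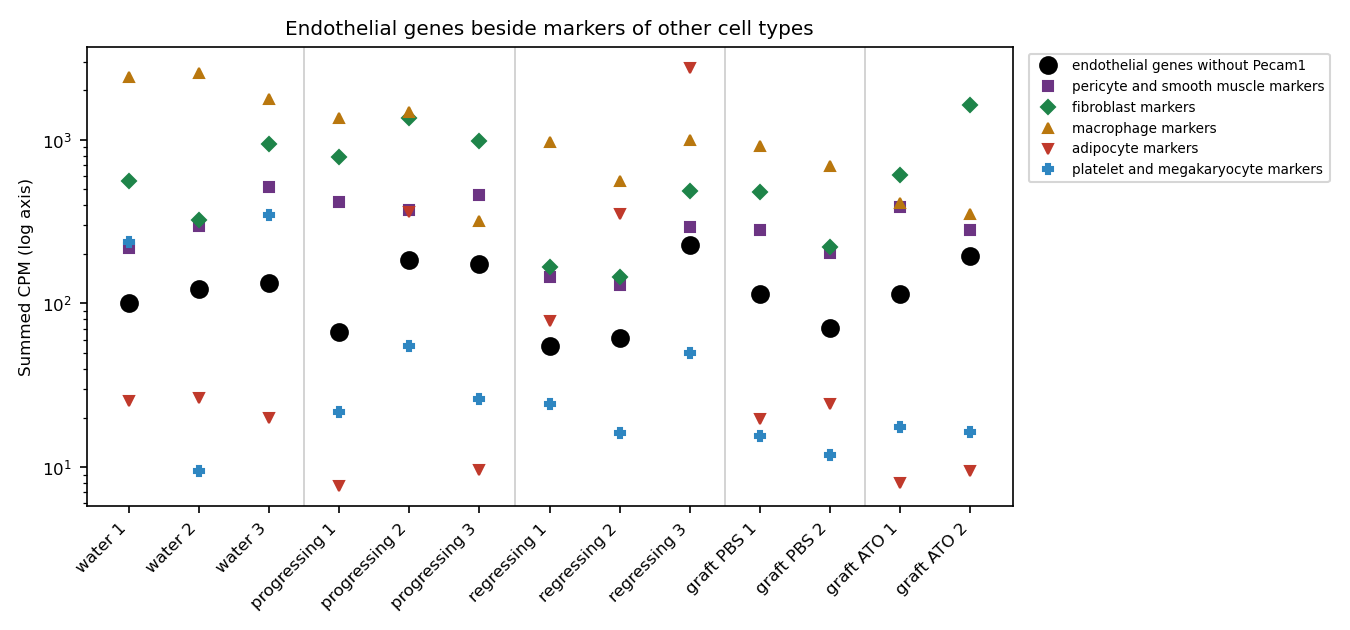
Summed CPM (vertical axis, log scale) in each library of the 9 endothelial genes other than Pecam1 (black circles) and of 5 lists of markers of other cell types. The endothelial sum is highest in regressing 3 (227 CPM), the library where adipocyte markers reach 2747 CPM, and among grafts in ATO 2 (195 CPM), where fibroblast markers reach 1640 CPM.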

How the data were processed

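RNA was extracted with TRIzol and made into libraries with a SMARTER mRNA-Seq kit, per the labels. The labels' protocol text also describes adipocyte culture, so it is not known how far it applies to these tissues. FastQC 0.10.1, cutadapt 1.9.1, HISAT2 2.0.1 and the build GRCm38 are named, per the submitters' processing notes, while which program counted reads, whether by strand, and with which annotation is not given in the sources used here. The authors deposited raw counts in one table per system, and beside them FPKM values, which served only for levels relative to gene length. Coordinates were taken from the W/W table alone, because the graft table uses another build. A human cell line in the series was not used here.

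The test was the quasi-likelihood test of edgeR 4.0.16 (R 4.3.3, filterByExpr, TMM), with the 9 W/W libraries in one fit of 3 groups and the 4 graft libraries in another. The script was tested on simulated data. A standard error is the log2 fold change over the root of F. The floor was set at 3 counts, and covers counting error alone, because the reads carry no molecular identifiers. The endothelial genes, the 16 other gene lists and the tests were chosen with earlier results of these data known. All 10 endothelial genes are named, and from each other list up to 3 called genes of largest change, or, where none was called, at most the most abundant. Likeness in pattern was ranked among tested genes averaging 1 CPM or more. Alternatives were other scalings (RLE factors, library size alone), no filter, DESeq2 1.42.0, limma-voom (limma 3.58.1), the compared groups alone, a replicate block, leaving out each library and, chosen after seeing the data, offsets for gene size and GC content and a crossed block. The level of 1 listed marker gene is not reported here.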

Additional observations from a re-analysis of the deposited data

Results flagged for a closer look

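The genes compared here were the endothelial genes and those picked by name from each other list, by the rule given above. The rest of each list was left out, so the count below does not cover the full lists. For 11 of the genes compared, every library of an ATO-treated thymus group lay on one side of its water libraries. Both ATO grafts lay on the other side of the PBS grafts for these 11, with the change called in at least 1 of the 2 systems. Separation of groups is common: 61.7% of all graft genes and 40.1% of all genes in regressing tumours against water did not overlap, in either direction. In progressing tumours against water, 11.9% of all genes lay all above and 14.7% all below. The share of all genes lying on opposite sides in the 2 systems was not counted. The tables were made separately, and the difference between the systems was not tested.

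Cldn5 was the one endothelial gene of the list among them, with a log2 fold change of 2.57 for progressing tumours against water and of -1.58 in the grafts. Of other vascular genes, Angpt1 stood at 3.88 in progressing and 3.29 in regressing tumours against water and at -0.49 in the grafts. Progressing tumours and grafts were opposite for Calcrl (-2.75 and 0.69), S1pr1 (-2.32 and 0.43), Mef2c (-4.02 and 2.44) and Nrp2 (-2.70 and 0.69). Regressing tumours and grafts were opposite for Rgcc (1.24 and -1.09). Cldn5 and Rgcc were called in the grafts alone, Angpt1, Calcrl, S1pr1 and Nrp2 in the thymus alone, and Mef2c in both.

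Among markers of other cells, Col3a1 stood at -2.73 in regressing tumours and 1.57 in the grafts, Col1a1 at -2.68 and 2.15, and Cfd at 5.27 and -3.03. Ptcra stood at 7.75 in regressing and 9.07 in progressing tumours and at -1.45 in the grafts. Ptcra was at 3 counts or fewer in the water libraries, so its fitted thymus values depend on the prior count and are no bounds.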

How the results depend on the processing

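Counts of called endothelial genes in the thymus stayed at 0 under every alternative, except that Cldn5 was called in progressing tumours against water (1 gene) without a filter on low counts, with DESeq2, with size and GC offsets and without water 2. Over omissions of 1 library, that count ran from 0 to 1. In the grafts the 3 called genes became 0 with size and GC offsets and ran from 0 to 5 over omissions. With library size alone Cldn5 lost its call there while Pecam1 and Cdh5 gained one, and Cdh5 also gained one without a filter and with DESeq2. In those omissions a lone library is assumed to vary like the other group. With the replicate block, 0 endothelial genes were called in each thymus comparison and 2 (Kdr and Flt1) in the grafts. Deviations of same-numbered thymus libraries correlated at -0.12 to 0.15, and those of differently numbered ones at -0.17 to 0.17. With groups of 3, these values do not decide whether the numbers pair libraries. In the grafts same-numbered libraries correlated at -0.12, the same for both numbers because each group held 2 libraries, which does not decide pairing either. A crossed pairing there, added after seeing the data, called 4. Library size alone shifted the median of all genes by 0.20, 0.02 and 0.20 in regressing against water, progressing against water and regressing against progressing, and by 0.19 in the grafts, and removing the filter shifted it by 0.21 there.

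Fitted directions that turned all belonged to uncalled genes. In regressing against progressing tumours, Vwf and Eng were 0.030 and 0.026 with RLE factors, 0.25 and 0.20 with library size alone, 0.095 and 0.096 without a filter, and 0.031 and 0.026 with DESeq2. In progressing tumours against water, Kdr was -0.055 with the replicate block and Plvap 0.095 with size and GC offsets. Over omissions of 1 library, log2 fold changes in regressing against progressing tumours ran from -0.71 to 0.66 for Vwf, -0.76 to 0.30 for Eng, -0.056 to 0.50 for Pecam1, -1.20 to 0.47 for Flt1, -1.51 to 0.14 for Emcn, -0.86 to 1.20 for Kdr and -0.59 to 0.67 for Tek. In progressing tumours against water they ran from -0.49 to 1.00 for Kdr and -0.64 to 0.21 for Plvap, and in regressing tumours against water from -0.43 to 0.96 for Cdh5, -0.64 to 1.51 for Kdr and -0.59 to 1.05 for Emcn. In the grafts they ran from -0.061 to 1.28 for Eng, -0.27 to 0.98 for Plvap and -0.15 to 0.72 for Emcn. The cause of these turns was not tested.

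Among the other listed genes the text names, calls were lost with limma-voom for Ucp1, Plin1, Ccl21a and Ptcra in regressing tumours against water, for Calcrl, Lyl1, Mef2c, Nrp2, Fut7, Ccl21a, Prss16, Notch3, Itgb3, Aire and Ptcra in progressing tumours against water, and for Notch1, Mcam, Lep and Lipe between regressing and progressing tumours. The replicate block ended calls of Angpt1, Ccl21a, Pi16, Ucp1 and Plin1 in regressing tumours against water. In progressing tumours against water it ended those of Lyl1, Nrp2, Fut7, Notch3, Itgb3 and Aire. Between regressing and progressing tumours it ended those of Notch1, Mcam and Lipe. With the compared groups alone, Col1a1 and Col3a1 lost their calls in regressing tumours against water. Calcrl, Icam2, Lyl1, Nrp2, Tgfb1, Notch3, Itgb3, Csf1r and Aire lost theirs in progressing tumours against water. Size and GC offsets ended the calls of Ucp1 in regressing and of Icam2, Itgb3 and Aire in progressing tumours against water. Icam2 also lost its call there without a filter. Library size alone ended that of Notch1 between regressing and progressing tumours. In the grafts, library size alone ended those of Egfl7, Vcam1 and Ptcra, and the replicate block those of Cd93, Epas1, Jag1, Vcam1, Abcc9, Col1a1, Col3a1 and Ccl25.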
